A study of Mus musculus with 4 samples.

Results

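The growth-arrest-specific genes were first found as transcripts that accumulate when mouse fibroblasts stop dividing at high density or without serum. Gas1, Gas2, Gas5, Gas6, Gas7 and Pmp22, the last formerly called Gas3, are described here in primary mouse embryonic fibroblasts, the connective tissue cells cultured from mouse embryos without immortalization. The members are all probe sets that the platform annotation pairs with exactly 1 of these 6 symbols, which gave 6 of 18193 named genes and 17 of 45037 probe sets, controls left out. A probe set is several short oligonucleotides that together read a transcript. Gas1 had 3 probe sets, Gas2 had 2, Gas5 had 4, Gas6 had 2, Gas7 had 5 and Pmp22 had 1. A further 1 probe set names Gas5 together with another gene and was not counted. The set was chosen from earlier results of these arrays, in which member levels differed by line number, so its values are a description and not independent evidence.

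The arrays measured 2 lines of wild-type fibroblasts and 2 lines of RBP2-null fibroblasts (RBP2-/-). Each line was used at passage 3 and has 1 array. RBP2 is the histone H3 lysine 4 demethylase now called Kdm5a, and no source used here says how the gene was inactivated. The sample titles number the lines 1 and 2 within each genotype. The numbers have no stated meaning, and no litter, day or batch is given for them. Below, wild-type 1 and RBP2-null 2, for example, are single lines, lines 1 are the wild-type and RBP2-null lines numbered 1, and lines 2 are those numbered 2.

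The protein-coding members act at different places in the cell. Gas1 is a membrane-anchored protein that binds Hedgehog ligands, works with Cdon and Boc as a co-receptor, and blocks entry into S phase when overproduced. Gas6 is a secreted, vitamin K-dependent ligand of the receptor tyrosine kinases Tyro3, Axl and Mertk. Pmp22 is a small membrane protein best known from peripheral myelin, Gas2 binds actin filaments and microtubules, and Gas7 is an F-BAR protein studied mainly in neurons. Gas5 is a host gene of small nucleolar RNAs whose spliced transcript is not translated into a known protein. Its transcript starts with a terminal oligopyrimidine tract, as those of ribosomal proteins do, and it builds up when translation slows because it is then degraded less.

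Of the members, Gas1 and Gas5 had the differences by line number that most of their own probe sets shared, and the bases before their transcription starts show how unlike these promoters are. The sequences are from RefSeq, build GRCm38.p6, where all 6 genes matched by Entrez number, and give the 250 bases before an annotated start, 5′ to 3′ along the gene. For Gas1 this is chr13:60177536-60177785 on the minus strand. For Gas5 it is chr1:161034916-161035165 on the plus strand, before the second of 2 annotated starts. Capitals mark every match, on either strand, to CCGCCC, TGACGTCA or CCAAT.
Gas1: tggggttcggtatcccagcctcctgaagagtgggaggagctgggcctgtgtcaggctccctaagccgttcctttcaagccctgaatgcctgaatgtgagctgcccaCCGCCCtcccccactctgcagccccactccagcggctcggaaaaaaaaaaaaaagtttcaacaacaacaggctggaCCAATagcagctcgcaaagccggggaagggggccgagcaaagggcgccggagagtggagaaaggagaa
Gas5: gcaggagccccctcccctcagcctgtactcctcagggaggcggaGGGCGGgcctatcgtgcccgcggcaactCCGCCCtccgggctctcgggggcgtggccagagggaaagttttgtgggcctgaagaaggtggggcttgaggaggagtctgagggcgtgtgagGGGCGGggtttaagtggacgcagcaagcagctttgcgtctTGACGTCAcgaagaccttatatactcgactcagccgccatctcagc
CCGCCC is the motif bound in vitro by the ARID domain of RBP2, and read on the other strand as GGGCGG it is also the GC box of Sp1, so the letters cannot tell the factors apart. It matched 1 time in the Gas1 window and 3 times in the Gas5 window, and 32.7% of the 32851 windows of this length in the RefSeq table hold it. The cyclic AMP response element TGACGTCA, bound by CREB and ATF factors, occurred in the Gas5 window from 46 to 39 bases before the start and in 1.55% of all windows. The window before the other annotated Gas5 start held CCGCCC 4 times and TGACGTCA 0 times. CCAAT, the NF-Y motif, matched in the Gas1 window and not in this Gas5 window, against 33.8% of all windows. Neither window held CACGTG, the E-box of Myc and Max, which 6.02% of windows hold, or the CArG box of serum response factor, which 1.47% hold. The transcript from this Gas5 start begins ctttcgga, a C followed by pyrimidines. The Gas6 window held CCGCCC 4 times. These matches are a description of letters and not of binding.

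The deposited values are signal intensities on a linear scale. The arrays differed in overall brightness, with trimmed means of 61.9 and 78.3 in wild-type 1 and RBP2-null 1 against 101 and 152 in wild-type 2 and RBP2-null 2. The arrays of lines 2 were thus brighter as a whole, and levels are compared after quantile normalization, as log2(signal + 9), called the log2 level below. Wild-type 1 stood apart, with a mean correlation of 0.927 with the other arrays over the 27022 brightest probe sets, against 0.942 to 0.948 for the others. Xist, expressed in female cells, had log2 levels of 9.51 in wild-type 1 and 9.37 in RBP2-null 2 but 3.72 in wild-type 2 and 3.38 in RBP2-null 1 on probe set 1427262_at, so each genotype and each line number holds 1 line of each kind. All 12 fibroblast markers had a kept probe set. With 4 arrays the precision is low. Nothing says that the cells came from separate embryos beyond the word lines, so errors measure the spread between these 4 lines.

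After the probe sets were ranked by mean level and the upper 60% kept, 13 of the 17 member probe sets remained and 4 were too dim. RBP2-null was then compared with wild type, and lines 2 with lines 1, each in limma over all 27022 kept probe sets, with Benjamini-Hochberg adjustment over all of them. A difference is called where the adjusted p is under 0.05, and standard errors (SE) and 95% intervals are from these fits. No member was called in either comparison, where 0.0037% of all kept probe sets were called in each. The smallest limma adjusted p among the members was 0.0567 by line number and 1.00 by genotype. At an unadjusted p under 0.05 there were 7 member probe sets by line number and 0 by genotype, beside 9.4% and 2.98% of all kept probe sets.

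**Figure D1:**
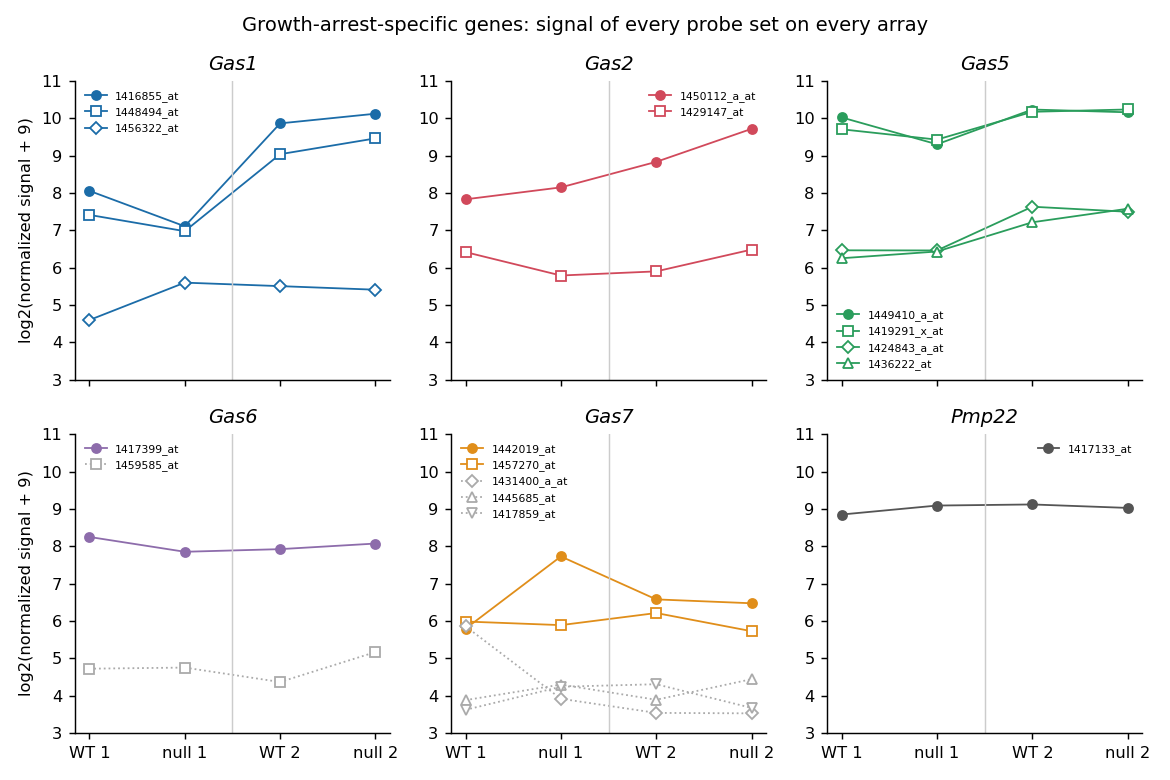
Log2 level, log2(normalized signal + 9), of all 17 member probe sets on each of the 4 arrays, with lines numbered 1 on the left and lines numbered 2 on the right of each panel. Filled symbols are the brightest kept probe set of a gene, open ones its other kept probe sets, grey dotted ones those too dim to be kept, and the lines only join the values of 1 probe set. The brightest Gas1 probe set is at 8.06 and 7.11 in lines 1 and at 9.87 and 10.12 in lines 2, while Pmp22 stays between 8.85 and 9.12.

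Gas1 was higher in both lines numbered 2 than in both lines numbered 1, in each genotype. The deposited signal of its brightest probe set, 1416855_at, was 157.5 in wild-type 1, 950.9 in wild-type 2, 98.7 in RBP2-null 1 and 1674.5 in RBP2-null 2. Both lines 2 were high and both lines 1 low, with no overlap. The ratio of deposited signals of line 2 to line 1 was 6.04 in wild type and 17.0 in RBP2-null cells, part of which is the overall brightness of those arrays. On the log2 scale the levels were 8.06 and 7.11 in lines 1, a mean of 7.58 ± 0.67 (SD, n = 2), and 9.87 and 10.12 in lines 2, with an SD of 0.18. The log2 difference was 2.41 with an SE of 0.29, which is 5.32-fold, and its 95% interval ran from 1.75 to 3.07. Of the 27022 kept probe sets, 6 had a larger difference toward lines 2.

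Another Gas1 probe set, 1448494_at, had the same order of arrays. Its log2 levels were 7.42 in wild-type 1, 9.04 in wild-type 2, 6.98 in RBP2-null 1 and 9.46 in RBP2-null 2, again with lines 2 above lines 1. The log2 difference was 2.06 with an SE of 0.23, and 20 kept probe sets had a larger one. The dimmest Gas1 probe set, 1456322_at, did not share the pattern. Its deposited signal was 12.1 and 36.6 in wild-type 1 and 2 and 28.9 and 50.4 in RBP2-null 1 and 2, and its log2 levels overlapped between line numbers, with a log2 difference of 0.36 and an SE of 0.43. No source used here says which stretch of the Gas1 transcript each probe set reads.

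By genotype Gas1 overlapped on all its probe sets. The log2 difference of RBP2-null minus wild type on 1416855_at was -0.35, with an SE of 0.88 and a 95% interval from -2.35 to 1.66. This interval is wide because the 2 lines of a genotype differed so much, with an SD of 1.28 in wild type and 2.13 in RBP2-null cells. Among lines 1 the RBP2-null line was lower than the wild-type line by a log2 difference of -0.95, and among lines 2 it was higher by 0.26. The sign of the genotype value also turned with the array left out, from -1.86 without RBP2-null 2 to 1.15 without RBP2-null 1, so no direction by genotype can be given for Gas1.

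Gas2 differed by line number on its brightest probe set but not on the other. On 1450112_a_at the deposited signal was 133.8 in wild-type 1, 461.1 in wild-type 2, 218.4 in RBP2-null 1 and 1282.6 in RBP2-null 2. After normalization the log2 levels were 7.83 and 8.15 in lines 1 and 8.84 and 9.72 in lines 2, without overlap and with RBP2-null 2 the highest. The log2 difference by line number was 1.29 with an SE of 0.28, which is 2.44-fold, and its 95% interval ran from 0.64 to 1.93. It was 0.85 without RBP2-null 2. On the dimmer 1429147_at the log2 levels were 6.42 in wild-type 1, 5.90 in wild-type 2, 5.79 in RBP2-null 1 and 6.49 in RBP2-null 2. There the line difference pointed in opposite directions within wild type and RBP2-null, at -0.52 and 0.69, and was 0.09 over both with an SE of 0.34. By genotype the brighter Gas2 probe set had a log2 difference of 0.60 with an SE of 0.50, and both genotypes overlapped. It was 0.10 without wild-type 1 and -0.18 without RBP2-null 2.

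All 4 probe sets of Gas5, the small nucleolar RNA host, were higher in both lines 2 than in both lines 1. The largest difference was on 1424843_a_at, with log2 levels of 6.47 in wild-type 1, 7.63 in wild-type 2, 6.46 in RBP2-null 1 and 7.50 in RBP2-null 2. Within each line number the genotypes lay close together on this probe set. Its log2 difference by line number was 1.10 with an SE of 0.22, or 2.15-fold, and that of 1436222_at was 1.05 with an SE of 0.25. The brightest, 1449410_a_at, had log2 levels of 10.03 and 10.24 in wild-type 1 and 2 and 9.31 and 10.16 in RBP2-null 1 and 2. Here RBP2-null 1 was low and the other arrays were close, so the log2 difference was smaller, 0.53 with an SE of 0.22, and was 0.17 without RBP2-null 1. The remaining probe set, 1419291_x_at, whose suffix marks probes that can bind other transcripts, had 0.64 with an SE of 0.15. By genotype the 4 Gas5 probe sets had log2 differences of -0.40, -0.11, -0.07 and 0.27, with SEs from 0.28 to 0.45, and overlapped throughout.

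Gas6, the ligand of the TAM receptors, overlapped between line numbers and between genotypes on its 1 kept probe set. The deposited signal of 1417399_at was 179.7 and 239.4 in wild-type 1 and 2 and 173.8 and 407.6 in RBP2-null 1 and 2. After normalization its log2 levels were 8.25, 7.92, 7.85 and 8.07 in the same order, so wild-type 1 was the highest and RBP2-null 1 the lowest. The log2 difference by line number was -0.05, with a 95% interval from -0.53 to 0.42, and that by genotype was -0.12, with a 95% interval from -0.67 to 0.42. These intervals leave room for differences of up to about that size in either direction. The sign by line number turned with the scaling and with the array left out. It was 0.26 with median-centred arrays, when the median of all kept probe sets lay at 0.19, and 0.15 without wild-type 1 and 0.02 without wild-type 2. The other Gas6 probe set, 1459585_at, was too dim to be kept, with deposited signals from 11.9 to 13.8 on 3 arrays and a higher one in RBP2-null 2. Its log2 levels were 4.72 and 4.36 in wild type and 4.75 and 5.16 in RBP2-null cells, higher in both RBP2-null lines by a small margin.

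Pmp22, the myelin membrane protein, was the steadiest member. Its only probe set, 1417133_at, had log2 levels of 8.85 in wild-type 1, 9.12 in wild-type 2, 9.09 in RBP2-null 1 and 9.03 in RBP2-null 2. As deposited these were 271.2, 561.8, 442.6 and 795.9, an order that follows the overall brightness of the arrays. The log2 difference was 0.10 by line number, with a 95% interval from -0.28 to 0.49, and 0.07 by genotype, with a 95% interval from -0.40 to 0.55. An interval that reaches 0.49 does not show that the lines were equal.

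Gas7, the F-BAR protein, was dim, and its probe sets did not follow each other. On the brightest, 1442019_at, the deposited signal was 33.6 in wild-type 1, 88.7 in wild-type 2, 158.4 in RBP2-null 1 and 125.3 in RBP2-null 2. After normalization RBP2-null 1 was high at a log2 level of 7.73, and the others were at 5.79, 6.58 and 6.47 in wild-type 1, wild-type 2 and RBP2-null 2. This gave the largest genotype difference among the members, 0.92 with an SE of 0.45 and a 95% interval from -0.11 to 1.94. It rests on lines 1, where RBP2-null minus wild type was 1.94, against -0.10 among lines 2, and it was 0.29 without RBP2-null 1. The other kept Gas7 probe set, 1457270_at, was lower in both RBP2-null lines, with log2 levels of 5.89 and 5.72 against 5.98 and 6.21 in wild type, and a log2 difference of -0.29 with an SE of 0.31. It was the only one of the 13 kept member probe sets whose genotypes did not overlap, where 29.5% of all kept probe sets did not. Of the 3 Gas7 probe sets too dim to be kept, 1431400_a_at had a deposited signal of 35.1 in wild-type 1 and 2.7, 4.2 and 3.5 in wild-type 2, RBP2-null 1 and RBP2-null 2, and the other two stayed under 19 on every array. Of those, 1445685_at was higher in both RBP2-null lines, at log2 levels of 4.29 and 4.44 against 3.88 and 3.89.

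**Figure D2:**
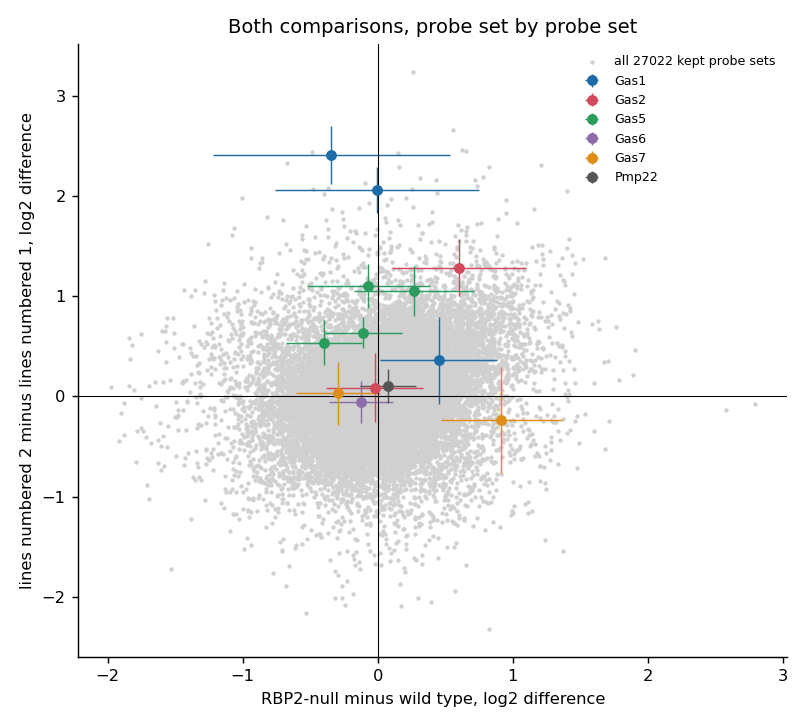
Log2 difference of RBP2-null minus wild type (horizontal) against that of lines numbered 2 minus lines numbered 1 (vertical) for the 27022 kept probe sets (grey) and the 13 kept member probe sets (coloured, bars are standard errors). The Gas1 probe sets at 2.41 and 2.06 lie near the upper edge of the grey points, while the members spread along the horizontal axis from -0.40 to 0.92.

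Counted together, 7 of the 13 kept member probe sets were higher in both lines 2 and 0 were lower, and 6 overlapped. The same was true of 20.2% and 20.7% of all kept probe sets. These 7 are 2 of Gas1, 1 of Gas2 and 4 of Gas5, so several read the same gene. By gene, on the brightest kept probe sets, 3 of the 6 members were higher in both lines 2 and 0 were lower. Of all 13097 kept named genes, 2620 were higher in both lines 2 and 2889 were lower. The estimate by line number was above 0 for 11 of the 13 and below 0 for 2. Over the 6 genes on their brightest kept probe sets, the median log2 difference by line number was 0.32, against -0.01 over all 13097 kept named genes. It was 0.52 without wild-type 1 and 0.28 without wild-type 2. Leaving out 1 array in turn gave 8 to 10 of the 13 higher in lines 2 and 0 to 2 lower. With 3 arrays, however, 31.4% to 39.3% of all kept probe sets were higher too, and 31.6% to 40% were lower. By genotype, 0 of the 13 were higher in both RBP2-null lines and 1 was lower, beside 14.6% and 14.9% of all kept probe sets, and the median over the 6 genes was -0.02. That median had no stable sign, at 0.38 without wild-type 2, 0.17 without RBP2-null 1 and -0.21 without RBP2-null 2. Without RBP2-null 1 there were 6 of the 13 higher and 1 lower by genotype, beside 30.5% and 32% of all kept probe sets. Without RBP2-null 2 there were 2 higher and 8 lower, beside 32.1% and 31.1%. The line-number comparison and the genotype comparison use the same 4 arrays.

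**Figure D3:**
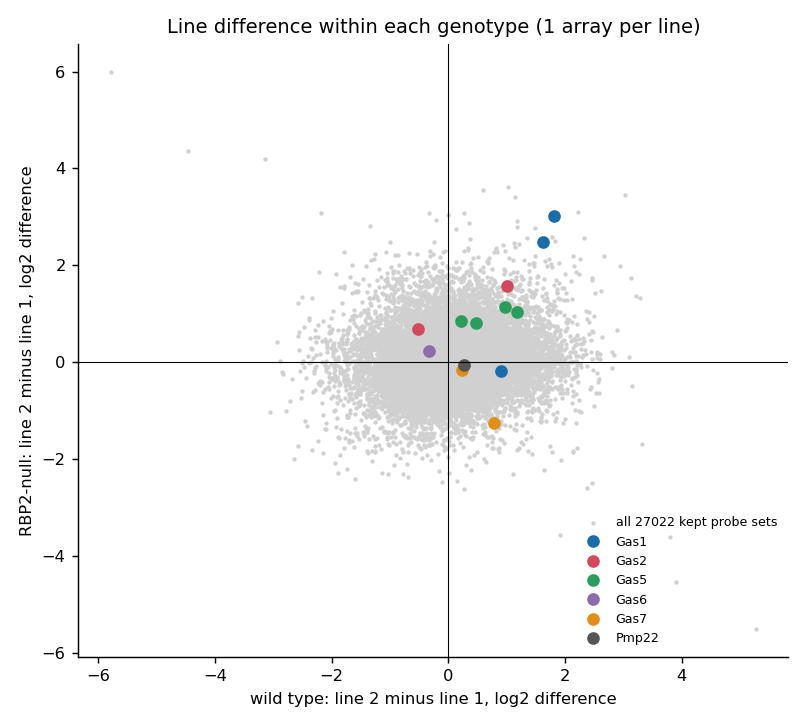
Line 2 minus line 1 within wild type (horizontal) and within RBP2-null cells (vertical), as log2 differences of 1 array each, for all kept probe sets (grey) and the members (coloured). The 7 probe sets of Gas1, Gas2 and Gas5 that separate by line number lie above and to the right of 0, with Gas1 1416855_at at 1.81 and 3.02, and the brightest Gas7 probe set lies at 0.79 and -1.25.

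The genes with the profile most like a member's over the 4 arrays were found as the smallest distance between array profiles, each centred on its own mean, among the other 13096 kept named genes. For Gas1 these were Clec14a, Tgfbi and Arap1, at distances of 0.63, 0.73 and 0.78 log2 units. Tgfbi, a secreted matrix protein induced by TGF-beta, had log2 levels of 7.02 and 6.93 in lines 1 and 8.80 and 9.51 in lines 2. For Gas2 they were Itm2a, Id2, an inhibitor of helix-loop-helix factors, and Apod, a secreted lipocalin, at distances of 0.23, 0.24 and 0.28. For Gas7 they were Ly75, Cadm3 and Slc32a1, at 0.22, 0.22 and 0.28. The closest profiles to Gas5, Gas6 and Pmp22, which varied less, were B9d2, Nat8f4 and Zswim1, at 0.01, 0.03 and 0.01. Some of these genes were dim. In lines 1, Clec14a had log2 levels of 4.30 and 3.69, and Apod had 4.45 and 4.41. With 4 arrays and this many genes a close profile is a description only.

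Other genes of the members' pathways follow, as differences relative to arrays scaled to 1 distribution. Without scaling the median of these same 27022 probe sets shifted by 0.72 by line number, and each gene given below with a value under 0 by line number then lay above 0, except Tyms, Acta1 and Elavl3. With arrays centred on their medians, Gadd45b turned too.

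Gas1 works beside other Hedgehog components, and 11 of the 13 listed genes of that pathway had a kept probe set. None was called in either comparison. By line number 4 were higher in both lines 2 and 2 were lower, beside 20.2% and 20.7% of all kept probe sets, and the median log2 difference was -0.09. Cdon, its fellow co-receptor, had log2 levels of 6.49 and 6.19 in lines 1 and 7.25 and 7.06 in lines 2, a log2 difference of 0.82 with an SE of 0.25. Ptch1, the Hedgehog receptor and a target of the pathway, had 0.75 with an SE of 0.24 and did not overlap between line numbers either. Boc, the other co-receptor, and the target Gli1 lay on the other side, at -0.39 and -0.32. Boc was lower in both lines 2, while Gli1 overlapped and was at 0.08 without wild-type 1. The list's median was 0.12 without wild-type 1, -0.19 without RBP2-null 1, -0.01 without RBP2-null 2, and 0.21 with median-centred arrays, when that of all kept probe sets was 0.19. By genotype 0 of the 11 were higher in both RBP2-null lines and 1 was lower, beside 14.6% and 14.9% of all kept probe sets. The median was -0.14, but 0.15 without RBP2-null 1 and -0.34 without RBP2-null 2.

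Of the receptors and partners of Gas6, all 6 had a kept probe set and 0 were called in either comparison. Axl, its main fibroblast receptor, had log2 levels of 11.24 and 11.21 in lines 1 and 10.82 and 10.55 in lines 2, a log2 difference of -0.54 with an SE of 0.14. Pros1, the related TAM ligand protein S, was the other way, at 0.85 with an SE of 0.25, and Tyro3 had 0.64 with an SE of 0.40. Without scaling Axl turned to 0.19, which is -0.53 relative to the median of all kept probe sets. By genotype these 6 lay between -0.26 and 0.24. None separated, where 29.5% of all kept probe sets did.

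Gas5 was set beside other small nucleolar RNA hosts and translation genes with a terminal oligopyrimidine tract, of which 17 of 20 had a kept probe set. By line number 7 were higher in both lines 2 and 2 were lower, where 20.2% and 20.7% of all kept probe sets did so. None was called, and the median log2 difference was 0.13. The host genes Snhg1 and Snhg6 had 0.59 and 0.58, each with an SE of 0.21, while Snhg7 had -0.52 with an SE of 0.34. Pabpc1, the poly(A)-binding protein, had -0.26 with an SE of 0.13. By genotype the list had a median of 0.03, or -0.05 without wild-type 1, with Eef1b2 at 0.30 and Snhg12 at -0.47.

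Relatives of the members by sequence family, such as Emp1 to Emp3, which resemble Pmp22, and Gas2l1 and Gas2l3, had 12 of 14 genes kept and 0 called. Emp1 and Emp3 had log2 differences by line number of 0.35 and 0.36, with SEs of 0.12 and 0.16, and Tmem47 had -0.79 with an SE of 0.26. Gas8 is a dynein regulator listed here for its name and not its sequence family, and it had 0.26 with an SE of 0.35. It was at -0.10 without RBP2-null 1. Of the growth arrest and DNA damage genes, a separate list and not a single gene family, all 6 were kept and 0 called. Gadd45gip1 and Ppp1r15a had 0.69 and 0.50 by line number, with SEs of 0.26 and 0.20, and Gadd45b had -0.23, or 0.30 without wild-type 1. The genotype medians of the families and of these growth arrest genes were -0.14 and -0.18, the latter 0.09 without RBP2-null 1.

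The members are named for arrested growth, so genes of quiescence, proliferation and the serum response are given beside them. Of 24 quiescence genes, all kept, 8 were higher in both lines 2 and 3 were lower, beside the same 20.2% and 20.7%, and 0 were called. The 8 include Pdgfra, Pdgfrb, Ddr2 and Prrx1, which are also among the fibroblast markers given below. The median of the 24 was 0.22, or 0.12 without RBP2-null 1 and also without RBP2-null 2. Pdgfra, the receptor for platelet-derived growth factor, had log2 levels of 5.72 and 7.47 in lines 1 and 8.93 and 8.84 in lines 2, a log2 difference of 2.29 with an SE of 0.47, or 1.43 without wild-type 1. Klf4 had 1.21 with an SE of 0.23, and the CDK inhibitor Cdkn1a had -0.39 with an SE of 0.14.

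Of the 27 proliferation genes with a kept probe set, 11 were higher in both lines 2 and 4 were lower, where 20.2% and 20.7% of all kept probe sets did so, and 0 were called. By sign, 17 lay above 0 and 10 below, with a median of 0.13, or 0.03 without wild-type 2. Bub1, a spindle checkpoint kinase, had 0.91 with an SE of 0.30, and the replication licensing factor Cdc6 had 0.90 with an SE of 0.34. Cdk1 and Tyms lay on the other side, at -0.47 and -0.80, and Tyms was at 0.05 without RBP2-null 2.

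The 1 probe set called by line number was in the serum response list. Fos, an immediate-early gene that serum switches on within minutes, had log2 levels of 7.99 and 8.04 in lines 1 and 11.02 and 11.49 in lines 2. Its log2 difference was 3.24 with an SE of 0.18. This is 9.43-fold, and limma gave an adjusted p of 0.00174. Its relative Fosb had 2.44 with an SE of 0.32 and was not called, and Myc and Plaur had -0.49 and -0.36. Of the 14 measured genes of this list 7 were higher in both lines 2 and 5 were lower, beside 20.2% and 20.7% of all kept probe sets. By genotype the quiescence, proliferation and serum response lists had 0 genes called and medians of 0.05, -0.02 and 0.07. Each changed sign with an array left out: without wild-type 1 the quiescence and serum response lists had -0.11 and -0.10, and without wild-type 2 the proliferation list had 0.08. What part handling, growth state or passage conditions had in these differences by line number was not tested.

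**Figure D4:**
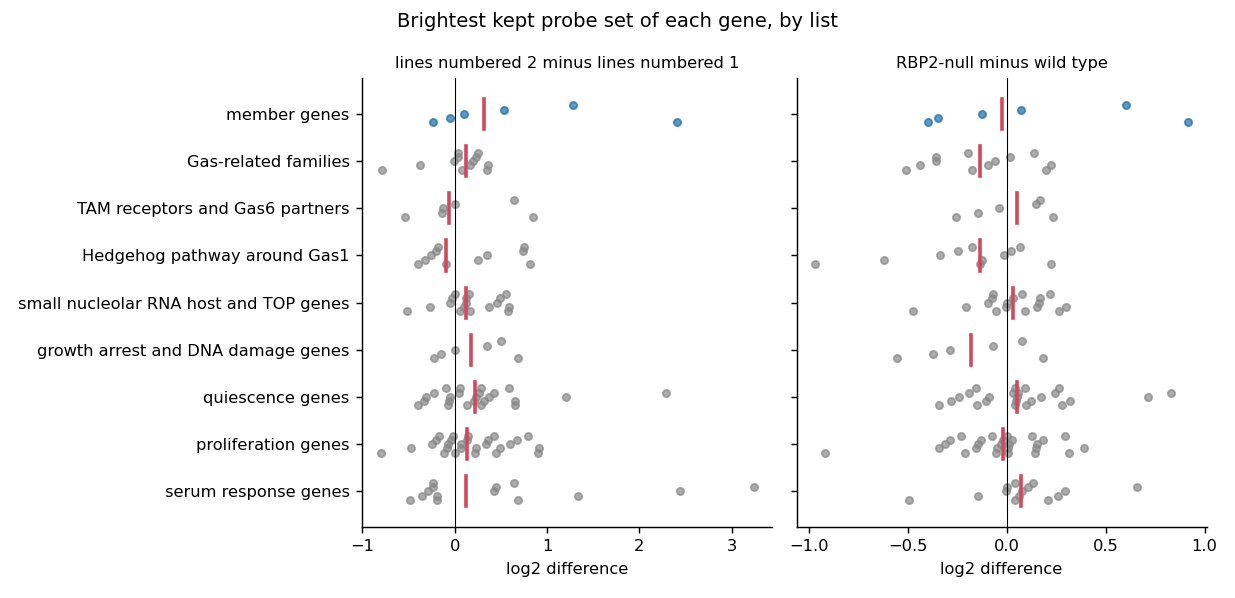
Log2 difference of the brightest kept probe set of each gene, by line number (left) and by genotype (right), for the 6 member genes (blue) and the 8 lists set beside them (grey), with the median of each in red. By line number the members reach from -0.23 for Gas7 to 2.41 for Gas1 with a median of 0.32, and the 8 lists drawn have medians from -0.09 to 0.22. The fibroblast markers, which are not drawn, have a median of 0.37.

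Pmp22 and Gas7 are also known from glia and neurons, and Gas2 from muscle, so markers of such cells were summed as normalized signal. Of 10 Schwann cell markers 3 were kept, with sums of 313 and 273 in lines 1 and 336 and 234 in lines 2, and Foxd3, Erbb3 and S100b were too dim. Of 10 neuron markers 8 were kept, with sums of 460 and 499 in lines 1 and 724 and 851 in lines 2. Of the kept ones, 3 were higher and 1 was lower in both lines 2, beside 20.2% and 20.7% of all kept probe sets. Stmn2 and Map2 differed by 1.46 and 0.85, with SEs of 0.24 and 0.21, while Elavl3 and Elavl4 differed by -0.82 and -0.50, with SEs of 0.58 and 0.43. Elavl3 was at -0.002 without wild-type 2 and Elavl4 at -0.12 without wild-type 1. Snap25 and Nefl were too dim. Of 10 skeletal muscle markers 5 were kept, with sums of 897 and 1373 in lines 1 and 495 and 477 in lines 2, in which Acta1 differed by -1.72 with an SE of 0.26. Of the other 4, Des and Myod1 lay above 0, at 0.21 and 0.36, the latter at -0.23 without RBP2-null 1. The list's median was -0.03, and Myog and Myf5 were too dim. Macrophage, epithelial and endothelial markers had 5 of 10, 7 of 8 and 4 of 7 kept. Their sums were 392 and 251, 918 and 570, and 174 and 194 in lines 1, and 289 and 266, 669 and 768, and 123 and 135 in lines 2. The 12 fibroblast markers summed to 41610 and 43080 in lines 1 and 46800 and 46940 in lines 2. Of these, 7 were higher and 1 was lower in both lines 2, beside 20.2% and 20.7% of all kept probe sets. The median log2 difference of the 12 was 0.37, or 0.21 without wild-type 1. Pdgfra, Pdgfrb, Ddr2 and Prrx1 are also in the quiescence list. Col3a1, a fibrillar collagen, had 0.67 with an SE of 0.12, and the matrix protein fibronectin, Fn1, had -0.19 with an SE of 0.11. The part of other cells in the member values was not tested, and in such bulk samples fewer cells of a type and less RNA per cell cannot be told apart.

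**Figure D5:**
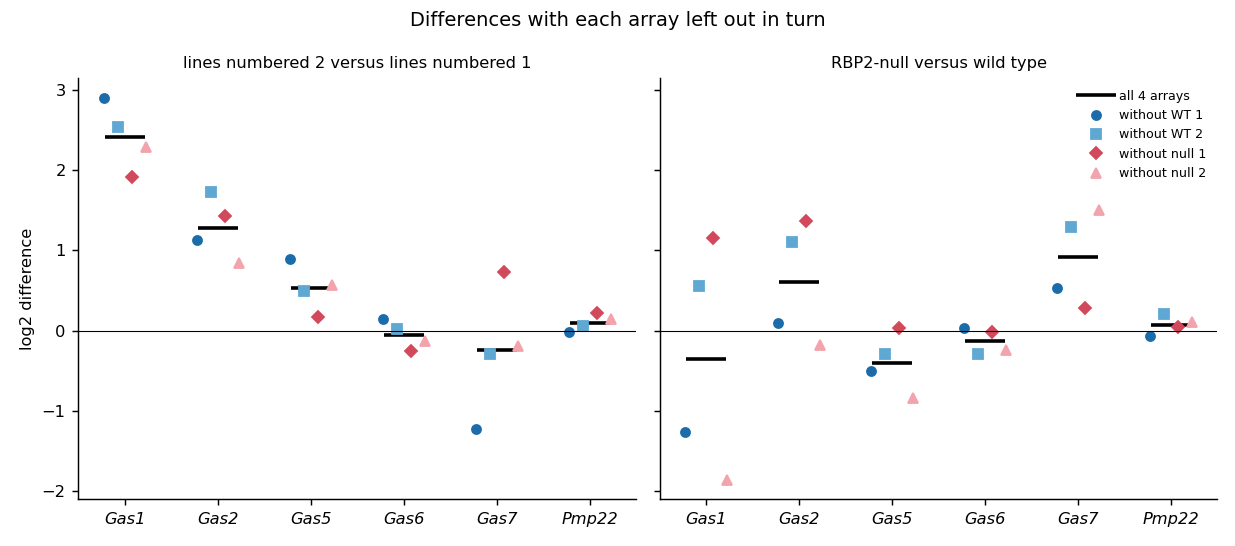
Log2 difference of each member on its brightest kept probe set by line number (left) and by genotype (right), with all 4 arrays (black bar) and with each array left out in turn (symbols). By line number Gas1 stays between 1.91 and 2.90, Gas2 between 0.85 and 1.73 and Gas5 between 0.17 and 0.89, while by genotype Gas1 runs from -1.86 to 1.15.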

How the data were processed

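Biotin-labelled RNA of 4 fibroblast lines was measured on Affymetrix arrays, per the labels. The deposited table holds linear signal intensity for 45101 probe sets, 64 of them controls. The way the authors summarised probes, corrected background or scaled arrays was not given in the sources used here. Trimmed means differed by up to 2.46 times, so the linear values without controls were quantile normalized in limma 3.58.1 (R 4.3.3). A pseudocount of 9, the rounded 25th percentile, was added before log2, which understates differences of dim probe sets. The upper 60% by mean were fitted with lmFit and eBayes with a mean-dependent prior, two-sided, by genotype and separately by line number. An exact two-sided permutation test of 2 arrays against 2 cannot give a p below 0.333.

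The platform annotation gave 1 symbol for 34945 probe sets, several for 932 and none for 9160, and 34741 matched RefSeq. The brightest kept probe set stands for a gene in lists. Values are given for all members, up to 2 genes at either end of a list in each comparison, and the 3 closest profiles; Xist, a check of the lines, is outside this rule. Members, lists and motifs were chosen with earlier results of these data known. The procedure was tested on simulated data with large added differences only, which does not show its error rate for smaller ones. The line numbers were not taken as pairs because nothing states that they pair the lines. Line 2 minus line 1 in wild type and in RBP2-null cells correlated at 0.113 over kept probe sets. With 1 difference per genotype this cannot show whether the lines were handled as pairs.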

Additional observations from a re-analysis of the deposited data

Results flagged for a closer look

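For 3 members the line difference on the brightest probe set pointed in opposite directions in the 2 genotypes, with 1 array per line, and the difference between genotypes was not tested. Gas7 had a log2 difference of line 2 minus line 1 of 0.79 in wild type and -1.25 in RBP2-null cells. Gas6 had -0.33 and 0.22, and Pmp22 had 0.27 and -0.063. Xist was high in wild-type 1 and RBP2-null 2 only. Such a reversal therefore cannot be told apart from a difference between those lines and the remaining ones.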

How the results depend on the processing

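The sign of the line-number difference of Gas1, Gas2 and Gas5 was kept in all 13 alternatives, with ranges from 1.91 to 3.25, from 0.11 to 2.11 and from 0.17 to 1.35. The lowest Gas2 value came from leaving out probe sets ending in _x_at, _s_at or _a_at, which moves Gas2 to its dimmer probe set. This setting also moves Gas5 to the dimmer 1436222_at, at 1.08 by line number and 0.30 by genotype. Of 13 alternatives Gas6 kept its sign in 9, Gas7 in 11 and Pmp22 in 12. By genotype Gas7 kept its sign in 13, Gas2 in 11, Gas1, Gas5 and Gas6 in 10 and Pmp22 in 12. Without scaling, and with the upper 60% chosen anew on the unscaled values, the median of the kept probe sets shifted by 0.73 by line number and 0.38 by genotype (0.72 and 0.38 over the probe sets kept in the report), and with arrays centred on their medians by 0.19 and 0.18. Without scaling, relative to that shift, Gas1, Gas2 and Gas5 differed by 2.52, 1.39 and 0.63 by line number and Gas6, Gas7 and Pmp22 by 0.07, -0.29 and 0.20.

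The number of probe sets called by line number was 1, and it was 11 with a pseudocount of 32, 20 with the upper 40% kept, 17 with median-centred arrays, 630 without scaling, 0 without the mean-dependent variance (where 2055 had an unadjusted p under 0.05) and 1 to 1281 with an array left out, of which 215 were without wild-type 1 and 1281 without RBP2-null 1. By genotype it was 1, and it was 2 with median-centred arrays, 0 without the filter, without scaling and without the mean-dependent variance, and 0 to 81 with an array left out, of which 81 were without wild-type 2 and 0 without RBP2-null 2. With the replicate block, genotype and line number both in the fit, the counts were 580 by line number and 49 by genotype; whether the numbers pair the lines is not known. All alternatives for the lists, given beside their values, and for the count of 7 member probe sets higher in both lines 2 were chosen after seeing the data. It was 9 with median-centred arrays and 12 without scaling, where 31.7% and 69% of all kept probe sets were higher too. With an array left out it was 8 to 10. Whether dim probe sets, such as those of Gas7, lie above background cannot be read from this table.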
